A study of Mus musculus with 16 samples.

Results

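The effect of a virus carrying the Tnpo3 cDNA was measured in the left ventricles of mice homozygous for the RBM20 mutation P635L, against a virus carrying a control construct. Of the 16 samples of the series, 8 enter this comparison: 4 P635L mice given the control virus (P635L Ctr) and 4 P635L mice given the Tnpo3 virus (P635L Tnpo3). All 8 mice were Bl6J, carried the mutation on both alleles, and had received 1e12 viral genomes of AAV9, an adeno-associated virus with affinity for heart muscle, at 4 weeks of age through a tail vein. Hearts were taken 12 weeks later, at 16 weeks, and each mouse gave 1 poly(A)-selected library. The control construct, built on pCAG with iCre and eGFP, expresses Cre recombinase and green fluorescent protein, so each difference is between the Tnpo3 cDNA and that construct, not between a virus and no virus. The 4 wild-type mice given the control virus (WT Ctr) are quoted as levels. They and the 4 wild-type mice given the Tnpo3 virus (WT Tnpo3) also enter the fits of all 16 libraries. Those fits give the test of whether the effect differed by genotype, the effect in WT hearts and a check of the gene calls. Both sexes were used per the labels, with none given for the individual animals. In all 8 P635L libraries the count of Xist was below that of the Y-linked genes. It was not below in WT Ctr replicate 4 or in WT Tnpo3 replicates 2 and 4.

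RBM20 is a splicing factor of striated muscle that binds pre-mRNAs of sarcomere and calcium-handling genes, where it mostly represses exons. Mutations in its arginine-serine stretch, such as P635L, reduce its import into the nucleus, so that the protein gathers in the cytoplasm and its target exons escape repression. TNPO3 (transportin 3) is the import receptor that carries proteins with arginine-serine stretches through the nuclear pore. Target exons are therefore read here by their inclusion level, the share of length-corrected junction reads that include the exon, from 0 (never included) to 1 (always included).

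The libraries held 37803840 to 85922669 counted reads. The first principal component of the 8 libraries (35.4% of the variance) separated the viruses, from -44.0 to -20.6 in P635L Ctr and from 18.6 to 42.9 in P635L Tnpo3. A single gene of unnamed product, ENSMUSG00000119584, took 5.30% of the counts in P635L Ctr replicate 3, 5.17% in P635L Tnpo3 replicate 1 and 3.08% in P635L Tnpo3 replicate 3, against 0.703% to 1.38% in the other libraries. Its part in the results was not tested beyond the fits without those libraries and with a term for them. Tissue identity followed the label: the 15 cardiomyocyte markers tested summed to 84649 to 89604 CPM (the counts-per-million scale) in P635L Ctr and 89844 to 103228 CPM in P635L Tnpo3.

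Tnpo3 itself, chr6:29540826-29609886 on the minus strand, was at 46.1, 46.3, 51.8 and 48.8 CPM in P635L Ctr replicates 1 to 4, and at 391, 786, 584 and 253 CPM in P635L Tnpo3 replicates 1 to 4. Every library with the Tnpo3 virus was above every library with the control virus, and replicate 4 was the lowest of the treated libraries. The difference was 3.38 on the log2 scale (SE 0.36, edgeR adjusted p = 0.00179, higher in 4 of 4 libraries), and an exact two-sided permutation test of the 70 assignments gave p = 0.0286, the smallest this design allows. The edgeR call was lost (3.47) when only the 5 libraries poor in ENSMUSG00000119584 were fitted. Reads from the viral cDNA and from the mouse gene cannot be told apart, and the overlapping gene Irf5 lies on the other strand. Rbm20 did not pass the test: it was at 254, 276, 272 and 218 CPM with the control virus and at 262, 234, 270 and 211 CPM with the Tnpo3 virus (log2 difference -0.06, SE 0.10, adjusted p = 0.717), and the groups overlapped.

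**Figure D1:**
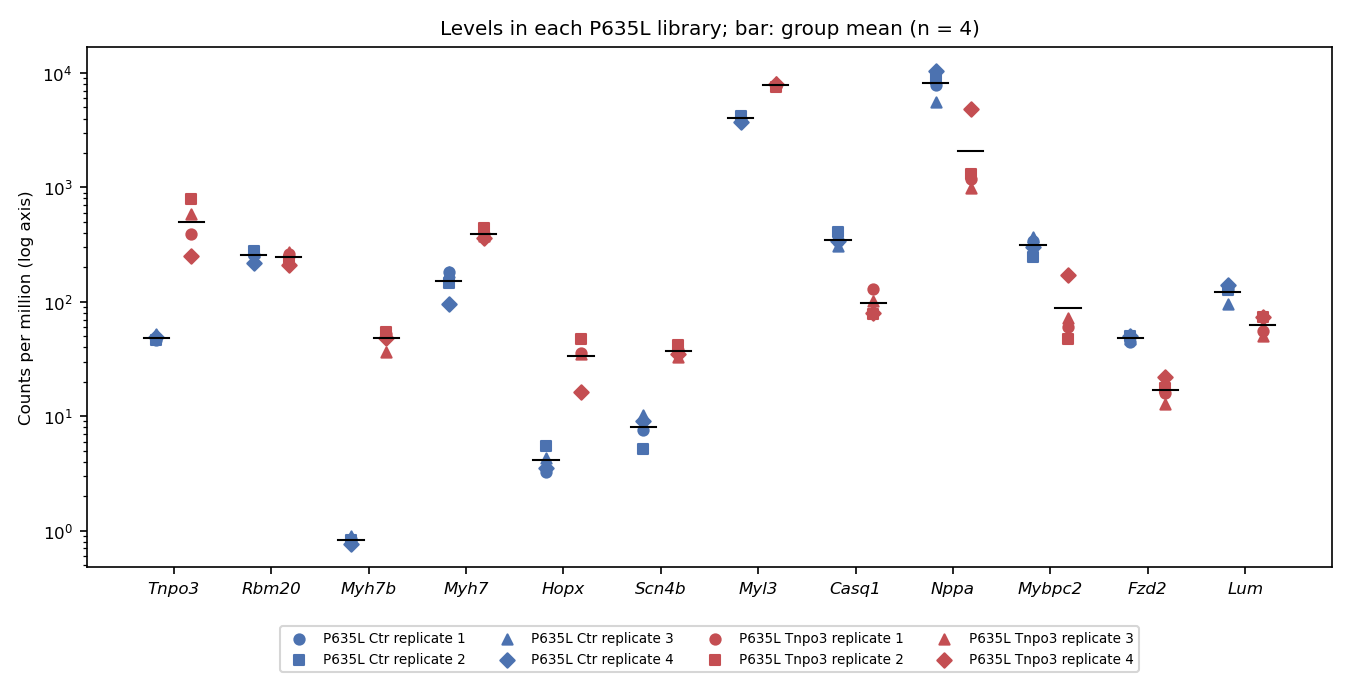
Level of 12 genes in each of the 8 P635L libraries, in CPM on a log axis, with blue for the control virus, red for the Tnpo3 virus, 1 marker shape per replicate number and a bar at the mean of 4. Tnpo3 runs from 253 to 786 CPM with its virus against 46.1 to 51.8, Myh7b stands furthest apart, Rbm20 overlaps, and replicate 4 with the Tnpo3 virus is the red point nearest to the blue ones for Nppa, Mybpc2 and Hopx.

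Called exons of RBM20 targets included ones in the giant spring protein titin, the calcium/calmodulin kinase CaMKIIδ, the ryanodine receptor and the Z-disc protein LDB3. The sequences below are the coding exons of 6 of the events described next. They are printed because each is a whole stretch of code that is gained or lost in the message. Capitals mark the alternative exon and lower case the 12 bases of the neighbouring exons on each side. Sequences come from GENCODE M21 transcripts (GRCm38), found by the lengths of the exon and its introns, and positions are those of the authors' files (GRCm39, per the submitters' processing notes).

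Ttn, 78 bases, chr2:76678623-76678700, minus strand: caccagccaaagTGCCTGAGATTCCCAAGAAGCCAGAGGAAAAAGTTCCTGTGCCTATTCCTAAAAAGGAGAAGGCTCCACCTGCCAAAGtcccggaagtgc
Camk2d, 60 bases, chr3:126599506-126599565, plus strand: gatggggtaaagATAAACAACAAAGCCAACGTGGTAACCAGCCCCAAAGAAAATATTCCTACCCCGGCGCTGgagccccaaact
Ryr2, 24 bases, chr13:11649193-11649216, minus strand: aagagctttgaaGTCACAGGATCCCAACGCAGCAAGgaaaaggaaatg
Pdlim5, 15 bases, chr3:142012045-142012059, minus strand: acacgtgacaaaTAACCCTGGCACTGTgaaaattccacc
Trdn, 48 bases, chr10:33219072-33219119, plus strand: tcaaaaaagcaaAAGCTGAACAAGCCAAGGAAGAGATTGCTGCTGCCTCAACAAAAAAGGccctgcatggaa
Arhgap10, 66 bases, chr8:78109354-78109419, minus strand: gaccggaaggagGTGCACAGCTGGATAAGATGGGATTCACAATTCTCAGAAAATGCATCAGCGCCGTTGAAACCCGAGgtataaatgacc

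These 6 exons have a length that is a multiple of 3, so each can be included or skipped without shifting the reading frame. The called exons of Ldb3 (359 bases), Ktn1 (112), Tpm2 (76) and St6galnac6 (91), not printed, do not. The titin exon codes for part of the proline-rich elastic stretch of the protein, in which repeated short exons of this kind lengthen the molecular spring when they are included. The Camk2d exon lies in the variable linker of the kinase, whose splicing affects where the enzyme goes in the cell.

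Titin lost inclusion of every one of its called exons. The 78-base exon was included at levels of 1.00, 1.00, 0.90 and 1.00 at the 4 listed positions of P635L Ctr, and at 0.28, 0.18, 0.19 and 0.08 in P635L Tnpo3. The groups were far apart, and WT Ctr libraries lay at 0.00, 0.05, 0.00 and 0.10. The mean fell by 0.79 (from 0.97 ± 0.05 to 0.18 ± 0.08, SD, n = 4, edgeR adjusted p = 1.08e-18, on means of 87.8 and 52.8 junction reads per library). Of 29 titin events tested, 11 were called, where 0.954% of all events were, and all 11 had lower inclusion, in 6 of them from a control group with no skipping read at all. A tested event needed at least 10 skipping reads over the 8 libraries. Those 6 therefore entered the test only through the treated libraries, and their direction was fixed beforehand. Among those 6, a 267-base exon, chr2:76632575-76632841, was at 1.00 in all 4 P635L Ctr libraries and at 0.68, 0.82, 0.47 and 0.64 in P635L Tnpo3, against a WT Ctr mean of 0.34 ± 0.06. A second 78-base exon, chr2:76692456-76692533, went from 1.00 in all 4 to 0.50, 0.45, 0.55 and 0.55, with a WT Ctr mean of 0.18 ± 0.03. Neighbouring titin events share skipping reads, so the 11 are not independent.

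The 60-base exon of Camk2d was included at 1.00, 1.00, 1.00 and 0.83 in P635L Ctr and at 0.37, 0.12, 0.59 and 0.24 in P635L Tnpo3. The groups did not overlap, but the treated libraries spread widely, with 1 above 0.5. Mean inclusion fell by 0.63 (adjusted p = 4.01e-06, 44 and 25.5 junction reads per library), and the WT Ctr mean was 0.04 ± 0.03. The 24-base exon of Ryr2, the calcium release channel of the sarcoplasmic reticulum, was at 0.23, 0.18, 0.18 and 0.22 in P635L Ctr and at 0.03, 0.03, 0.03 and 0.10 in P635L Tnpo3. All 4 treated libraries were lower than all controls, and the mean fell by 0.16 (adjusted p = 1.57e-07) towards the range of WT Ctr, 0.00 to 0.02.

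Other targets gained inclusion. A 359-base exon of Ldb3, which encodes a Z-disc scaffold, chr14:34298943-34299301, rose from 0.64, 0.68, 0.63 and 0.68 to 0.92, 0.93, 0.93 and 0.96, a gain of 0.28 (adjusted p = 2.84e-36, 1702 and 838 junction reads per library), and WT Ctr lay at 0.94 to 0.97. The spread within each group was small beside the gap. A mutually exclusive pair of Ldb3 exons was called at -0.22 (0.64 ± 0.06 to 0.42 ± 0.16, adjusted p = 0.0315), but its groups overlapped (exact permutation p = 0.0857). The 15-base exon of Pdlim5, a second Z-disc scaffold, rose from 0.51, 0.54, 0.62 and 0.56 to 0.81, 0.76, 0.83 and 0.68 (gain 0.21, adjusted p = 9.31e-19), where WT Ctr had a mean of 0.79 ± 0.02. The 48-base exon of Trdn (triadin, an anchor of the calcium store) rose from a mean of 0.63 ± 0.01 to 0.75 ± 0.03 (adjusted p = 4.34e-11) with no overlap, beside 0.76 ± 0.03 in WT Ctr.

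Smaller or less even changes were found in further targets. A 112-base exon of Ktn1 (kinectin) lost 0.14 (0.56 ± 0.04 to 0.42 ± 0.05, adjusted p = 7.17e-08). Another Ktn1 exon, of 84 bases at chr14:47963928-47964011, gained 0.11 (0.22 ± 0.02 to 0.33 ± 0.03, adjusted p = 7.13e-15) with no overlap. In Tnnt2, cardiac troponin T, the 9-base exon moved from 0.70, 0.70, 0.76 and 0.71 to 0.86, 0.85, 0.88 and 0.81 (adjusted p = 0.0273). The groups were separate, yet that call was lost when any of 6 positions was left out, at differences of 0.12 to 0.15. Retention of a 758-base intron of Kcnip2, the subunit of the transient outward potassium channel, went from 0.36 ± 0.06 to 0.62 ± 0.14, above the WT Ctr mean of 0.38 ± 0.12, and was not called without Tnpo3 position 4 (difference 0.21). The Mlip exon of 72 bases went from 0.96 ± 0.08 to 0.62 ± 0.13, and its call was lost without Ctr position 2 (-0.32) or Tnpo3 position 4 (-0.29). For the 105-base exon of Nebl (nebulette), 0.39 ± 0.04 against 0.67 ± 0.17, it was lost without Tnpo3 position 2 (0.25) or 3 (0.22).

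In Tpm2, which encodes β-tropomyosin, the groups overlapped. Its 76-base exon was at 0.46, 0.50, 0.58 and 0.42 in P635L Ctr and at 0.40, 0.30, 0.40 and 0.42 in P635L Tnpo3, while WT Ctr lay at 0.01 to 0.07. The difference of -0.11 passed the event test (adjusted p = 0.000465) but not the exact permutation test (p = 0.0571), and it fell short of the 0.1 minimum without Ctr position 3 or Tnpo3 position 2 (smallest difference -0.08). A mutually exclusive pair of the same gene was called from 0.42 ± 0.06 to 0.53 ± 0.05 (adjusted p = 0.0178), also with overlap (exact permutation p = 0.0857). WT Ctr was at 0.95 ± 0.05. The level of such a pair is the share of an exon against its alternative, so its sign cannot be set against that of the skipped exon.

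**Figure D2:**
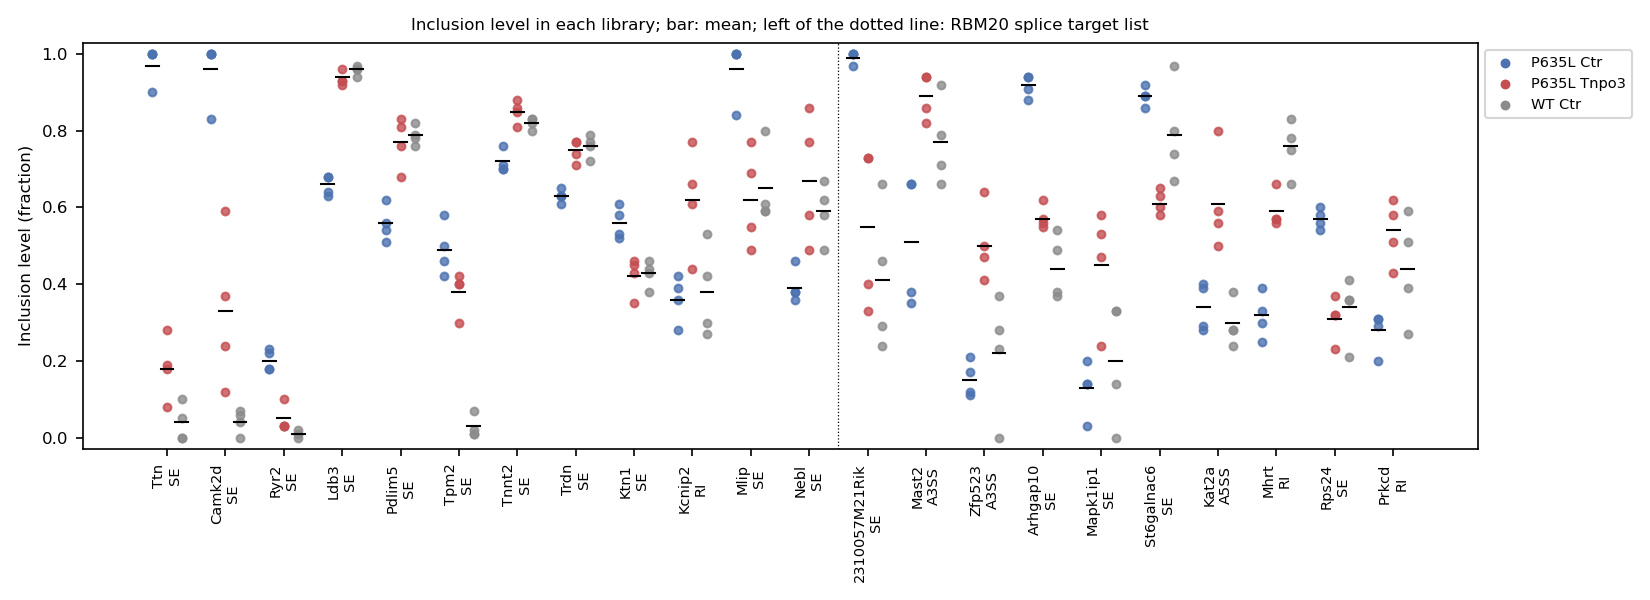
Inclusion level (fraction, 0 to 1) of 22 named events in each library of P635L Ctr (blue), P635L Tnpo3 (red) and WT Ctr (grey), with bars at the means and event types given under the gene names (SE skipped exon, RI retained intron, A3SS and A5SS alternative splice sites). The red points leave the blue ones in Ttn, Camk2d, Ryr2, Ldb3 and Arhgap10, and overlap them in Tpm2.

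Counted over all genes, 155 of the 16243 events tested were called (0.954%), 95 with higher and 60 with lower inclusion, in 128 genes. A call needed an adjusted p under 0.05 and a difference in mean inclusion of at least 0.1. Of the 44 listed RBM20 targets, 36 had an event tested and 13 had one called, and 28 of their 379 events were called (7.39%) against 127 of 15864 (0.801%) in other genes. The list was drawn up with earlier results of these data known, so this excess is a description. Among the 23 named events, 22 showed no overlap between the 8 libraries, each with an exact permutation p of 0.0286 (0.0299 adjusted over the 23). Of all 16243 events tested, 924 (5.69%) showed none. The named events were picked as the largest called ones, and the 10 outside the target list had to be free of overlap. The count of 22 and these permutation p-values are therefore descriptions. Adjustment over the 23 does not account for their choice from the 16243 events tested.

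The event test used counting noise and a fitted quasi-dispersion. With the estimated negative binomial dispersion that had been planned, 2 of all events were called, Ldb3 and Arhgap10, and limma on the log ratios called 6, of which 4 were named events (Ttn, Ldb3, Arhgap10 and St6galnac6). Without Tnpo3 position 2, 101 events were called.

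Event types differed in direction. All 42 called retained introns, of 2434 tested, had higher retention with the Tnpo3 virus, whereas called skipped exons split into 35 higher and 46 lower of 8813 tested. Mutually exclusive exons gave 3 higher and 12 lower of 1798, alternative 3' splice sites 12 and 1 of 2062, and alternative 5' splice sites 3 and 1 of 1136. For mutually exclusive exons the level is the share of an exon against its alternative, so the direction depends on which exon is counted. Averaged over all 2434 introns, retention was 0.288, 0.281, 0.278 and 0.253 in P635L Ctr and 0.297, 0.296, 0.299 and 0.301 in P635L Tnpo3. Every treated library was above every control, by a small margin, while WT Ctr lay at 0.268, 0.248, 0.290 and 0.282. The means of alternative 3' splice sites (0.548 to 0.553 in P635L Ctr, 0.555 to 0.559 in P635L Tnpo3) and of mutually exclusive exons (0.426 to 0.438 against 0.410 to 0.418) did not overlap either, the former higher and the latter lower with the Tnpo3 virus. Skipped exons as a class overlapped, with mean inclusion of 0.712 to 0.719 in P635L Ctr and 0.712 to 0.716 in P635L Tnpo3, as did alternative 5' sites, at 0.484 to 0.5 and 0.493 to 0.497.

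**Figure D3:**
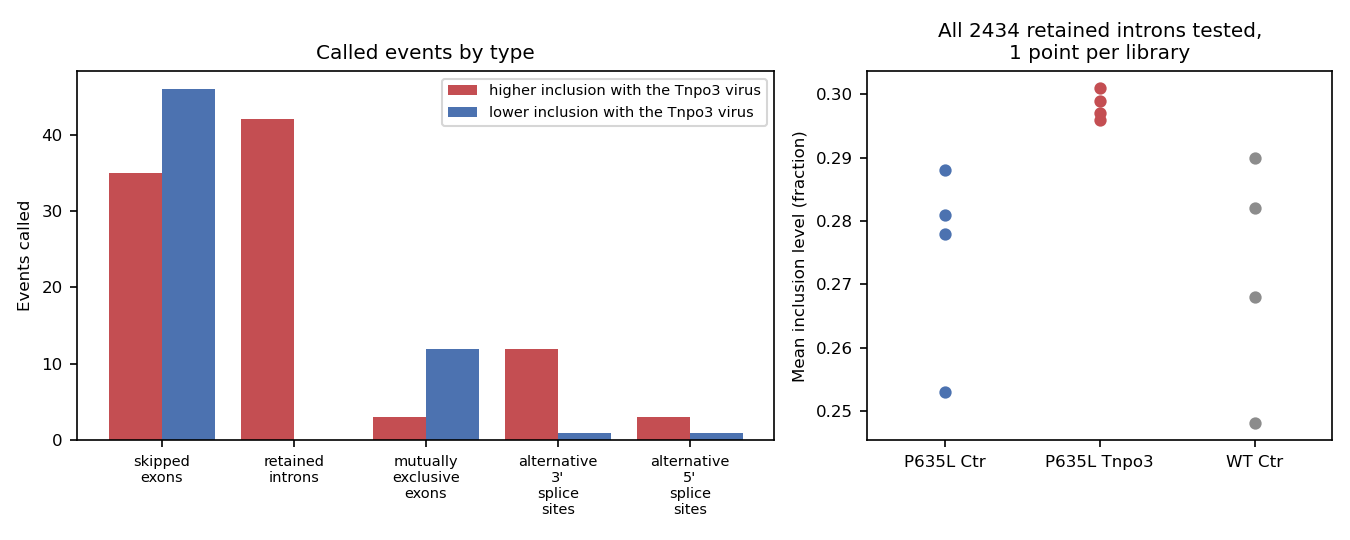
Left, number of called events of each type with higher (red) or lower (blue) inclusion with the Tnpo3 virus. Right, mean inclusion level of all 2434 retained introns tested, 1 point per library, on an axis that does not start at 0: P635L Tnpo3 lies at 0.296 to 0.301, P635L Ctr at 0.253 to 0.288 and WT Ctr at 0.248 to 0.290.

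Outside the target list, called events included a 66-base exon of Arhgap10, a GTPase-activating protein, printed above. It was included at 0.88, 0.91, 0.94 and 0.94 in P635L Ctr and at 0.57, 0.55, 0.56 and 0.62 in P635L Tnpo3 (difference -0.34, adjusted p = 2.18e-14), with a WT Ctr mean of 0.44 ± 0.08. An 18-base exon of the ribosomal protein gene Rps24, chr14:24544120-24544137, fell from 0.58, 0.56, 0.60 and 0.54 to 0.32, 0.23, 0.32 and 0.37 (adjusted p = 1.62e-21), beside 0.34 ± 0.08 in WT Ctr. In both genes the treated libraries were all below the controls, where the choice of these events required groups free of overlap.

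A 983-base intron of Mhrt, a long noncoding RNA antisense to Myh7, chr14:55207884-55208866, rose from 0.39, 0.30, 0.33 and 0.25 to 0.56, 0.66, 0.57 and 0.57 (adjusted p = 2.05e-22), against 0.76 ± 0.07 in WT Ctr. Inclusion reads summed to 942 in P635L Ctr and 2463 in P635L Tnpo3, and skipping reads to 1024 and 828. Whether the junction counts used the strand is not stated, so reads of Myh7 may be among the inclusion reads. Their part in this event was not tested. The 91-base exon of St6galnac6, a sialyltransferase, fell from 0.89 ± 0.02 to 0.61 ± 0.03 (adjusted p = 0.00259), below the WT Ctr mean of 0.79 ± 0.13, and an alternative 5' site of Kat2a, a histone acetyltransferase, rose from 0.34 ± 0.06 to 0.61 ± 0.13 (adjusted p = 0.000301), above the WT Ctr mean of 0.30 ± 0.06. The other 5 named events, in 2310057M21Rik, Mast2, Zfp523, Mapk1ip1 and Prkcd, had differences of -0.44, 0.38, 0.35, 0.33 and 0.26, and each lost its call without at least 1 position.

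At the level of whole genes, the Tnpo3 virus changed 2846 of 17930 genes tested (15.9%), 1251 higher (6.98%) and 1595 lower (8.9%). Most changes were small: the median size among called genes was 0.47 on the log2 scale, and 452 genes (2.52%) changed at least 2-fold, 271 higher and 181 lower. The libraries of both groups did not overlap in 3800 genes (21.2%), of which 2549 were called. The split by direction depends on the scaling, since upper-quartile factors gave 1511 higher and 1252 lower (54.7% higher, against 44.0% as reported). With all 16 libraries in 1 fit the call rule was met by 724 genes, and in the 5 libraries poor in ENSMUSG00000119584 by 1171. Leaving out Ctr replicate 4, Ctr replicate 2 or Tnpo3 replicate 2 gave 1809, 1831 and 1863 genes. Of the genes named below, Hopx, Lamc3, Tnnt3, Timd4, Npas2, Kpna4, Ipo7, Khdrbs3, Timp4, Mybpc2, Mthfd2, Tef, Fgf21, Ipo5, Hsph1, Mmel1 and Myl2 lost their calls in those 5 libraries. With no filter on low counts, Inhba, Ace, Gdf15, Mybpc2, Mthfd2, Timp4, Lyz1 and Mmel1 lost theirs.

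**Figure D4:**
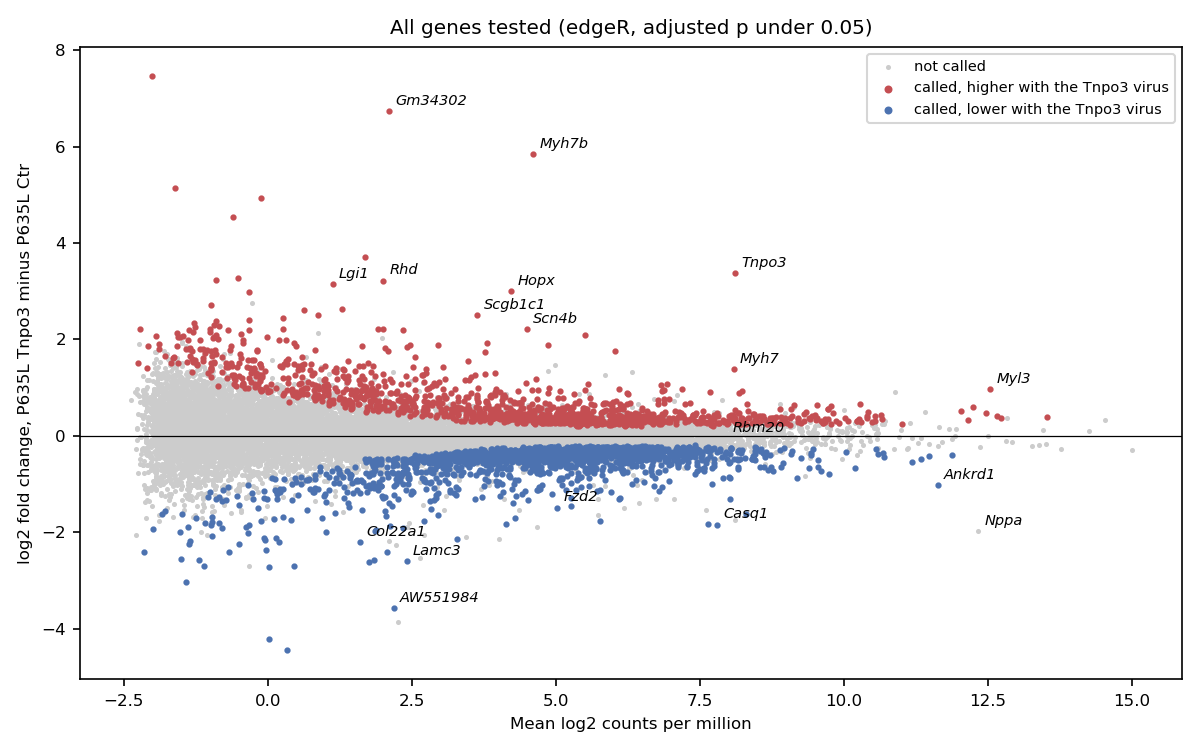
log2 change with the Tnpo3 virus, relative to P635L Ctr, against mean log2 CPM for the 17930 genes tested, with called genes in red (1251 higher) or blue (1595 lower). Myh7b and Tnpo3 stand out among well-covered genes on the upper side and AW551984 and Casq1 on the lower, while Nppa has a large fall that was not called.

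The gene with the clearest rise was Myh7b, chr2:155453132-155476227, which encodes a slow-type myosin heavy chain and hosts a muscle microRNA. It was at 0.836, 0.826, 0.890 and 0.766 CPM in P635L Ctr and at 52.3, 54.9, 36.5 and 48.4 CPM in P635L Tnpo3, a gap far beyond the spread of either group. The log2 change was 5.85 (SE 0.15, adjusted p = 2.1e-10), or 57.9-fold, and WT Ctr stood at 220 ± 62.1 CPM. WT Ctr levels are scaled with all 16 libraries, and on that scale the P635L Ctr mean of Tnpo3 is 45 CPM in place of 48.2 CPM. Myh7, the β-myosin heavy chain, was at 182, 145, 181 and 95.8 CPM and rose to 393, 445, 374 and 361 CPM (log2 1.38, adjusted p = 0.00196, WT Ctr 836 ± 214 CPM). Trpc4ap overlaps Myh7b and Mhrt overlaps Myh7 on the other strand, and no source used here states whether counting used the strand. The same holds for Casq1, Mybpc2, Nppa and Col22a1, each of which overlaps a gene on the other strand.

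Of the 38 thick and thin filament genes tested, 9 rose and 8 fell, with a median of -0.15 against -0.00 for all genes. Beside this and every list count below stand the shares over all genes tested, 6.98% called higher and 8.9% called lower. Myl3, the ventricular essential light chain, went from 3977, 4242, 4223 and 3710 CPM to 7624, 7566, 8414 and 7975 CPM (log2 0.97, SE 0.08, adjusted p = 3.56e-05), with no overlap and WT Ctr at 9536 ± 1574 CPM. Among the genes that fell was Tnnt3, the fast skeletal troponin T, from 11.7 ± 1.45 to 3.74 ± 1.89 CPM (log2 -1.65, adjusted p = 0.00485), with replicate 4 highest of the treated libraries at 6.57 CPM. Mybpc2, the fast skeletal myosin-binding protein C, was at 338, 247, 368 and 300 CPM and then at 60.6, 47.2, 72.1 and 173 CPM (log2 -1.82, adjusted p = 0.0376). Its groups were separate, but the call was lost when any of 7 libraries was left out (log2 -2.39 to -1.41 and adjusted p up to 0.345 over the alternatives).

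Calcium handling genes gave 5 higher and 5 lower of 34 (median -0.01). Casq1, the skeletal form of the calcium store protein calsequestrin, was at 343, 405, 309 and 338 CPM with the control virus and at 130, 77.8, 102 and 79.9 CPM with the Tnpo3 virus. All treated libraries were under all controls (log2 -1.84, SE 0.16, adjusted p = 0.000188), while WT Ctr was at 9.94 ± 1.32 CPM. The cardiac form Casq2 fell from 971 ± 76.1 to 586 ± 71.9 CPM (log2 -0.73, adjusted p = 0.000639) and the T-type calcium channel gene Cacna1g from 96.6 ± 12.5 to 39.3 ± 6.61 CPM (log2 -1.30, adjusted p = 0.000162). Atp2b1, a calcium pump of the surface membrane, rose from 55.2 ± 6.20 to 82.8 ± 6.54 CPM (log2 0.58, adjusted p = 0.0016). Atp2a2, the SERCA2 pump that refills the store, was at 3721 ± 560 and 4130 ± 679 CPM, and its groups overlapped (adjusted p = 0.488). With all 16 libraries in the fit Casq2 did not pass.

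Ion channel genes gave 6 higher and 3 lower of 27 (median 0.08). Scn4b, an accessory subunit of sodium channels, was at 7.50, 5.16, 10.3 and 9.11 CPM and then at 38.2, 42.3, 33.1 and 35.3 CPM (log2 2.22, SE 0.19, adjusted p = 0.000171), beside 31.2 ± 5.66 in WT Ctr. Kcnv2, a modifier subunit of voltage-gated potassium channels, rose from 1.60, 1.38, 2.20 and 2.04 to 5.10, 7.23, 6.72 and 6.18 CPM (log2 1.82, adjusted p = 0.000143). Neither gene had overlapping groups. Kcnj5, an inward rectifier subunit, fell from 68.7 ± 8.55 to 44.2 ± 7.04 CPM (log2 -0.64, adjusted p = 0.00554).

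Of 17 heart stress genes, 2 rose and 5 fell (median -0.45). Ankrd1, a stretch-responsive cofactor of the sarcomere, was at 4458, 4365, 3642 and 4576 CPM in P635L Ctr and at 1801, 2006, 1609 and 2984 CPM in P635L Tnpo3 (log2 -1.02, SE 0.18, adjusted p = 0.00482). The groups were separate, with treated replicate 4 nearest to the controls, and the call was lost with all 16 libraries in the fit. Xirp1, an actin-binding protein of the intercalated disc, fell from 238 ± 26.9 to 145 ± 10.6 CPM (log2 -0.72, adjusted p = 0.000453). Nppa, which encodes atrial natriuretic peptide, was not called: it was at 7798, 8863, 5565 and 10485 CPM against 1191, 1303, 985 and 4882 CPM (log2 -1.97, SE 0.61, adjusted p = 0.0785). The 4 treated libraries were all lower, and without replicate 4 the value was -2.82 and was called, as it was by DESeq2 (-1.95), with all 16 libraries (-1.97) and with the replicate block (-2.28). Gdf15, a stress cytokine, went the other way, from 3.67 ± 0.916 to 9.60 ± 5.03 CPM (log2 1.38, adjusted p = 0.0473), and lost its call with all 16 libraries and without any of 6 (log2 1.13 to 1.88, adjusted p up to 0.156 over the alternatives).

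Nppa is also a marker of atrial cells. The 7 atrial markers tested summed to 5705 to 10646 CPM in P635L Ctr and 1105 to 4981 CPM in P635L Tnpo3. Nearly all of both sums was Nppa itself, at the levels given above, so they do not describe the other markers. Of the 7, 3 had a positive and 4 a negative change, with 1 called higher and 2 called lower. In bulk tissue, fewer cells of a type and less RNA per cell cannot be told apart, here and in the results below.

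Among core cardiac transcription factors, 1 of 25 rose and 6 fell (median -0.08). The riser was Hopx, a homeodomain protein without DNA binding, at 3.27, 5.45, 4.33 and 3.53 CPM with the control virus and 35.6, 46.9, 35.1 and 16.3 CPM with the Tnpo3 virus (log2 3.00, SE 0.34, adjusted p = 0.0018). Replicate 4 was lowest but still above all controls, WT Ctr was at 262 ± 27.6 CPM, and the call was lost (2.93) in the 5 libraries poor in ENSMUSG00000119584. Hopxos overlaps it on the other strand. Tbx20, a T-box factor of the adult heart, fell from 65.0, 64.8, 55.1 and 73.3 to 27.7, 33.1, 29.6 and 34.6 CPM (log2 -1.05, SE 0.10, adjusted p = 7.52e-05), and Gata4 fell from 97.0 ± 11.3 to 62.8 ± 6.45 CPM (log2 -0.63, adjusted p = 0.00156).

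The RBM20 targets as whole genes gave 3 higher and 12 lower of 43 (median -0.13). Enah, an actin-filament elongation factor, went from 275, 293, 292 and 263 CPM to 131, 117, 122 and 190 CPM (log2 -1.0, adjusted p = 0.00121). Pdlim3, an α-actinin-binding Z-disc protein, went from 51.1 ± 9.22 to 25.9 ± 0.524 CPM (log2 -0.98, adjusted p = 0.000279), and Pdlim5, whose exon is printed above, from 511 ± 28.1 to 313 ± 12.4 CPM (log2 -0.71, adjusted p = 9.83e-05, lost with all 16 libraries). In each, all treated libraries were below all controls.

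Among structural genes at cell contacts, 13 of the 33 intercalated disc and costamere genes fell and 1 rose (median -0.26). Pkp2 (plakophilin 2, a desmosome protein) went from 212, 210, 217 and 205 CPM to 140, 133, 136 and 149 CPM (log2 -0.60, SE 0.07, adjusted p = 0.000188), and filamin C (Flnc) from 588 ± 36.1 to 395 ± 44.1 CPM (log2 -0.57, adjusted p = 0.00147). Both kept the direction and call with each library left out. Sgcb, β-sarcoglycan, fell from 166 ± 11.3 to 113 ± 6.74 CPM (log2 -0.56, adjusted p = 0.000695), a call lost with all 16 libraries.

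Of 48 nuclear genes for oxidative phosphorylation, 18 rose, by 0.24 to 0.63 on the log2 scale, and 0 fell (median 0.15). Cox7a1, a muscle-type subunit of cytochrome oxidase, was at 530, 539, 674 and 584 CPM and then at 926, 928, 917 and 827 CPM (log2 0.63, SE 0.09, adjusted p = 0.000905), with no overlap. Ndufb8, a complex I subunit, rose from 84.1 ± 8.37 to 115 ± 5.13 CPM (log2 0.45, adjusted p = 0.00337, lost with all 16 libraries). The 13 genes of the mitochondrial genome gave 1 higher and 1 lower (median -0.19), the latter being mt-Nd2, a complex I subunit, which fell from 4299 ± 366 to 3258 ± 205 CPM (log2 -0.40, adjusted p = 0.00775, also lost with all 16).

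Genes of fatty acid uptake and oxidation gave 9 higher and 1 lower of 38 (median 0.09). Etfb, which passes electrons from acyl-CoA dehydrogenases to the respiratory chain, was at 116, 119, 123 and 117 CPM and rose to 199, 194, 176 and 175 CPM (log2 0.65, SE 0.07, adjusted p = 0.000176). Decr1, an enzyme for unsaturated fatty acids, rose from 246 ± 30.3 to 393 ± 37.7 CPM (log2 0.67, adjusted p = 0.00114), and Lpl, the lipase that frees fatty acids from lipoproteins, from 3870 ± 363 to 5844 ± 452 CPM (log2 0.59, adjusted p = 0.00142). The groups were separate in all 3 genes. Glucose and glycogen genes were even, 6 higher and 6 lower of 40 (median -0.06), with Phkg1, a catalytic subunit of phosphorylase kinase, up from 8.33 ± 1.20 to 16.7 ± 2.57 CPM (log2 1.00, adjusted p = 0.000744) and Pdha1, the entry enzyme of pyruvate oxidation, down from 524 ± 68.1 to 334 ± 26.5 CPM (log2 -0.65, adjusted p = 0.00138, lost with all 16 libraries).

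The serine, one-carbon and ATF4 genes, which respond to mitochondrial and amino acid stress, gave 2 higher and 11 lower of 28 (median -0.39). Atf5, a transcription factor of that response, was at 340, 417, 319 and 401 CPM and fell to 129, 153, 102 and 217 CPM (log2 -1.30, SE 0.22, adjusted p = 0.00641), with replicate 4 again the nearest to the controls. Mthfd2, a mitochondrial folate enzyme, was at 17.7, 23.8, 29.8 and 38.5 CPM against 4.89, 10.5, 4.23 and 11.4 CPM (log2 -1.82, adjusted p = 0.0255), and lost its call without any of 5 libraries (log2 -2.07 to -1.29, adjusted p up to 0.102 over the alternatives). Fgf21, a secreted factor of the same response, was near the limit of detection, at 0.390 to 0.645 CPM against 0.00 to 0.271 CPM. Heat shock and endoplasmic reticulum chaperones gave 5 higher and 9 lower of 38 (median -0.11), among them Hspa1a, an inducible HSP70, from 3.72 ± 1.29 to 1.41 ± 0.379 CPM (log2 -1.40, adjusted p = 0.00526) and Hspb3, a small heat shock protein of muscle, from 22.4 ± 2.92 to 13.9 ± 0.933 CPM (log2 -0.69, adjusted p = 0.00121).

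Called matrix genes were mostly lower. Of 24 collagens, 10 fell and 0 rose (median -0.51), and of 45 matrix proteoglycans, matricellular proteins and cross-linkers 8 fell and 1 rose (median -0.47). Col22a1, a collagen of muscle-tendon junctions, was at 3.80, 7.50, 3.31 and 4.66 CPM and then at 0.638, 0.834, 0.817 and 1.88 CPM (log2 -2.21, SE 0.36, adjusted p = 0.00318), and Col15a1, of basement membranes, fell from 219 ± 34.7 to 133 ± 24 CPM (log2 -0.72, adjusted p = 0.00969). Lum, the keratan sulfate proteoglycan lumican, went from 129, 126, 95.4 and 140 CPM to 55.6, 73.0, 50.4 and 73.3 CPM (log2 -0.96, SE 0.15, adjusted p = 0.00245), and decorin (Dcn) from 921 ± 138 to 592 ± 79.8 CPM (log2 -0.64, adjusted p = 0.00474). In each the treated libraries were all below the controls. The abundant fibrillar collagen Col3a1 was not called, at 512, 382, 228 and 377 CPM against 250, 354, 226 and 372 CPM (log2 -0.32, adjusted p = 0.472), and the groups overlapped. Over the 24 collagens the groups were free of overlap in 5, beside 21.2% of all genes. Several called collagens depended on single libraries. Col12a1 (log2 -1.88) lost its call without any of 6 libraries and Col4a3 (-0.93) without any of 5. Col11a1 (-2.69) lost it without Ctr replicate 2 and Col9a2 (-2.58) without Tnpo3 replicate 2. Tnc, the matricellular protein tenascin C, was the riser, from 1.92 ± 0.539 to 4.06 ± 0.924 CPM (log2 1.08, adjusted p = 0.00877, lost with all 16 libraries).

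Genes of the TGF-β family gave 1 higher and 8 lower of 26 (median -0.40), the higher one being Gdf15. Tgfb2, a ligand, was at 32.9, 40.5, 33.9 and 34.8 CPM and fell to 15, 16.8, 12.8 and 20.7 CPM (log2 -1.12, SE 0.13, adjusted p = 0.000405), and Inhba, the activin A subunit, fell from 10.7 ± 1.64 to 4.39 ± 2.06 CPM (log2 -1.28, adjusted p = 0.015). Matrix proteases and inhibitors gave 1 higher and 4 lower of 23 (median -0.12): Mmp2, a gelatinase, fell from 72.9 ± 11.7 to 32.8 ± 7.20 CPM (log2 -1.15, adjusted p = 0.00212) while Timp4, an inhibitor of such proteases, rose from 35.3 ± 4.78 to 61.1 ± 14.9 CPM (log2 0.79, adjusted p = 0.0145, lost with all 16 libraries). Of 30 Wnt genes 3 were lower and 0 higher (median -0.30), a count of lower genes near the share over all genes (8.9%). The receptor Fzd2 was at 44.3, 50.4, 47.5 and 50.2 CPM against 15.9, 17.8, 12.9 and 21.9 CPM (log2 -1.49, SE 0.13, adjusted p = 8.24e-05).

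Fibroblasts make much of this matrix. Of 10 resident fibroblast markers 6 fell and 0 rose, and their summed level was 4076 to 5548 CPM in P635L Ctr and 2972 to 3730 CPM in P635L Tnpo3. Lum, Dcn and Col15a1 belong to that list as well. Pdgfra, the receptor that defines these cells, was at 67.6, 69.1, 72 and 95.2 CPM and fell to 37.0, 47.5, 35.3 and 41.4 CPM (log2 -0.92, SE 0.12, adjusted p = 0.000934). Activated fibroblast genes gave 1 higher and 1 lower of 18, with summed levels of 605 to 1114 and 369 to 930 CPM. The part of fibroblast number in the matrix results was not tested.

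Of 17 macrophage markers, 10 rose and 0 fell (median 0.71), and their summed level was 447 to 633 CPM in P635L Ctr and 703 to 1143 CPM in P635L Tnpo3. F13a1, made by resident macrophages, was at 27.0, 23.1, 26.6 and 36.6 CPM and then at 43.2, 47.5, 61.5 and 54.4 CPM (log2 0.87, SE 0.15, adjusted p = 0.0038), and Timd4, a receptor of long-lived resident macrophages, rose from 0.984 ± 0.2 to 2.36 ± 0.613 CPM (log2 1.26, adjusted p = 0.00587). The groups did not overlap in either gene. Lymphocyte markers gave 0 higher and 1 lower of 15, endothelial markers 3 higher and 0 lower of 14, smooth muscle and pericyte markers 1 higher of 12, and Schwann and neuronal markers 0 called of 10. Erythroid markers gave 2 higher and 0 lower of 8 (median 0.66, summed level 726 to 1297 CPM in P635L Ctr and 1100 to 1696 CPM in P635L Tnpo3). Mesothelial and epicardial markers gave 1 higher and 0 lower of 4 (median 0.88), with sums of 9.05 to 11.7 and 13 to 18.4 CPM. Adipocyte markers gave 1 higher and 0 lower of 4 (median 0.18), with sums of 1111 to 1396 and 1510 to 1681 CPM. The part of these cells in the results was not tested. Interferon-stimulated genes, which respond to viral nucleic acid, gave 1 higher and 0 lower of 31 (median 0.13).

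**Figure D5:**
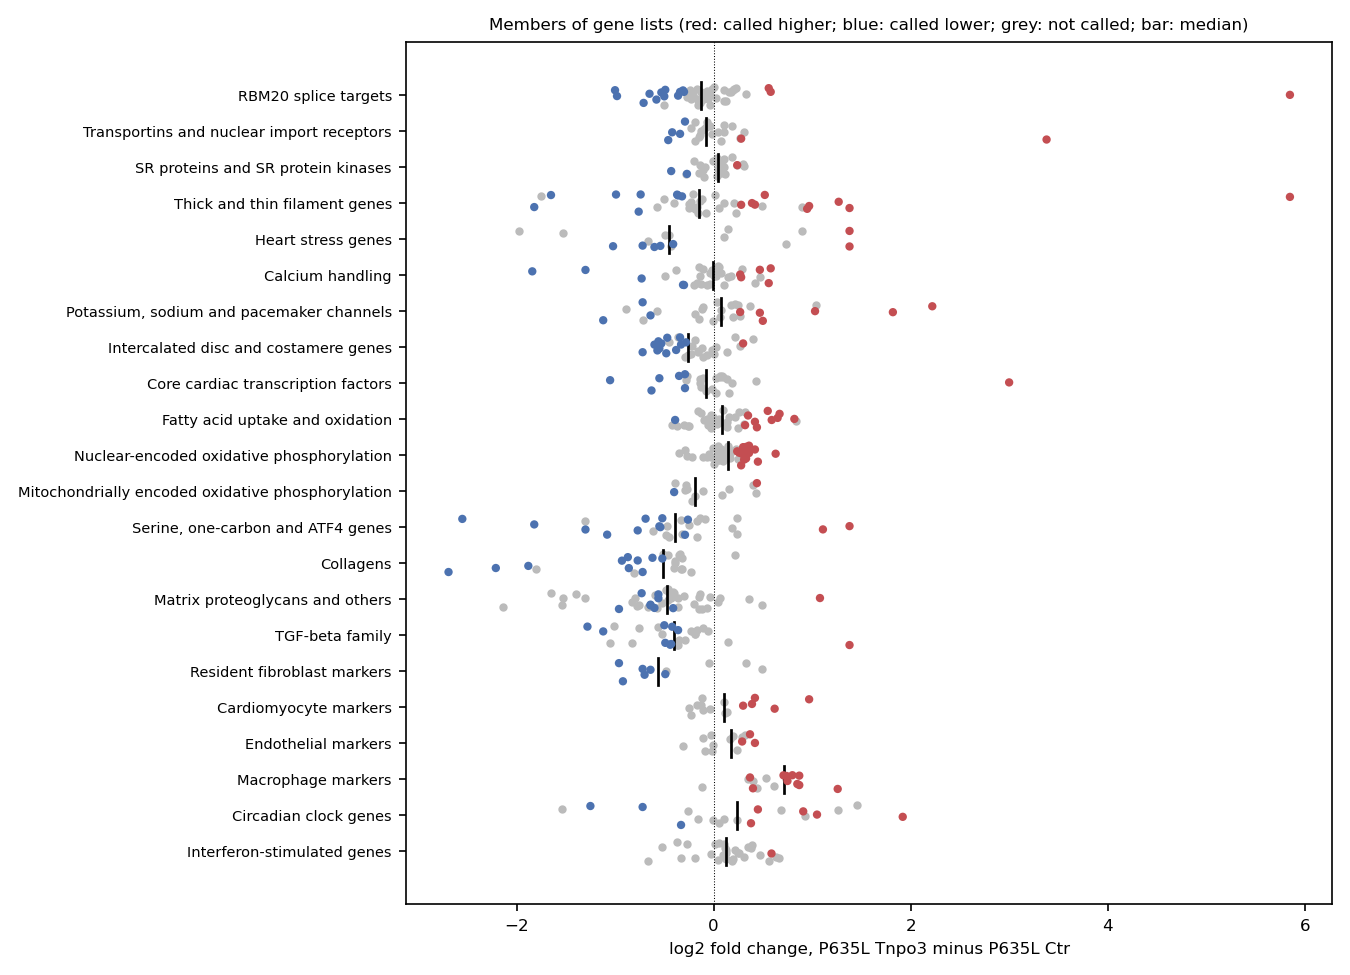
log2 change with the Tnpo3 virus, relative to P635L Ctr, of each tested member of 22 gene lists, with called members in red (higher) or blue (lower), the others in grey, and a bar at each list's median. Among the lists shown, the medians run from -0.56 in resident fibroblast markers to 0.71 in macrophage markers, and Myh7b lies far to the right of the other members of the lists that hold it.

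Of 24 nuclear transport receptors tested, 2 rose, Tnpo3 among them, and 4 fell (median -0.08). Kpna4, an importin α, fell from 66.5 ± 5.94 to 48.5 ± 3.96 CPM (log2 -0.46, adjusted p = 0.00415) and Ipo7, a carrier of ribosomal proteins and histones, from 91.6 ± 5.40 to 68.6 ± 4.32 CPM (log2 -0.42, adjusted p = 0.0031), both lost with all 16 libraries. The SR proteins, the usual cargo of TNPO3, gave with their kinases 1 higher and 2 lower of 24 (median 0.04), no more than the share over all genes (15.9%). Srsf5 changed most among the 3, from 271 ± 30.9 to 202 ± 16.0 CPM (log2 -0.43, adjusted p = 0.00902, likewise lost). Muscle splicing regulators gave 1 higher and 3 lower of 21 (median -0.06), of which Khdrbs3, a STAR-family splicing regulator, rose from 40.6 ± 2.23 to 54.3 ± 6.14 CPM (log2 0.42, adjusted p = 0.00698, likewise lost).

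Adrenergic and cyclic nucleotide genes gave 4 higher and 6 lower of 32 (median 0.07). Grk5, a kinase that desensitises β-adrenergic receptors, was at 102, 105, 101 and 116 CPM and fell to 58.6, 52.7, 44.6 and 57.8 CPM (log2 -0.99, SE 0.09, adjusted p = 6.92e-05), and Pde1c, a calcium-activated phosphodiesterase, rose from 14.3 ± 2.49 to 30.7 ± 3.38 CPM (log2 1.10, adjusted p = 0.000263). Neither gene had overlapping groups. In the angiotensin, aldosterone and endothelin list, 2 rose and 3 fell of 18, with Ace, the angiotensin-converting enzyme, down from 215 ± 34.4 to 124 ± 26.6 CPM (log2 -0.79, adjusted p = 0.00911).

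Clock genes gave 5 higher and 3 lower of 19 (median 0.24). Tef, an output factor of the clock, was at 130, 176, 142 and 119 CPM and then at 252, 264, 348 and 201 CPM (log2 0.91, SE 0.17, adjusted p = 0.00721), while Npas2, a partner of BMAL1, fell from 5.53 ± 1.09 to 2.32 ± 0.953 CPM (log2 -1.25, adjusted p = 0.00772). The labels give no hour of harvest, so the time of day and the virus cannot be told apart for these genes, and Tef lost its call with all 16 libraries.

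Several of the most changed genes belong to no list. Lgi1, a secreted protein best known from synapses, rose from 0.405, 0.470, 0.470 and 0.403 CPM to 3.53, 3.33, 5.55 and 3.13 CPM (log2 3.14, adjusted p = 2.97e-05), and Scgb1c1, a secretoglobin, from 2.74, 3.47, 5.69 and 3.08 CPM to 21.4, 23.2, 19.9 and 19.8 CPM (log2 2.5, adjusted p = 5.96e-05, WT Ctr 18.7 ± 4.36 CPM). Rhd, of the Rh blood group family, rose from 0.749 ± 0.366 to 7.27 ± 2.67 CPM (log2 3.22, adjusted p = 0.000648). On the lower side, AW551984 was at 6.36, 13.9, 5.39 and 7.04 CPM and then at 0.691, 0.428, 0.503 and 1.13 CPM (log2 -3.57, adjusted p = 0.000633, WT Ctr 0.153 ± 0.123 CPM), and Lamc3, a laminin chain, went from 9.02 ± 1.41 to 1.49 ± 0.834 CPM (log2 -2.60, adjusted p = 0.00622). The groups were separate in all 5 genes. Lgi1, Scgb1c1 and Lamc3 each overlap a gene on the other strand.

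Whether the virus acted differently in mutant and wild-type hearts was tested as an interaction over all 16 libraries. It was called for 94 of 18662 genes (0.504%), 55 in which the change was shifted upwards in the mutant and 39 in which it was shifted downwards, and 91 of them were also called in the 8 P635L libraries. The Tnpo3 virus changed 1 gene in WT hearts at an adjusted p under 0.05 (0.00536%), with 597 at an unadjusted p under 0.05. In the same fit of 16 libraries, 724 genes were called in P635L hearts, against 2846 in the fit of 8. Myh7b had an effect larger by 6.53 in P635L hearts (adjusted p = 3.18e-07), where the log2 change in WT hearts was -0.67. For Myh7 the difference was 2.16 (adjusted p = 0.0115), for Myl3 1.11 (adjusted p = 0.0128) and for Casq1 -2.10 (adjusted p = 0.00397). The count was 52 without P635L Tnpo3 replicate 3 and 221 without WT Tnpo3 replicate 4, and ENSMUSG00000119584 took 20% to 22.7% of the counts in 3 of the WT libraries. Tnpo3 itself showed no called difference (0.55, adjusted p = 0.588). By the counts of Xist and the Y-linked genes, the WT groups were mixed in sex and the P635L groups were not. The part of sex in the interaction and in the WT levels was not tested.

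The treated libraries were not alike. Over 198 called genes with a change of at least 2-fold and a mean log2 CPM of at least 1, treated replicate 4 was the library nearest to the control mean in 109 genes (55.1%), against 41, 20 and 28 for replicates 1 to 3. It was also the farthest from the control mean in 49 genes, against 31, 42 and 76 for replicates 1 to 3, so it was not nearer throughout. The median shift from the control mean was 1.27, 1.32, 1.45 and 1.13 log2 units in replicates 1 to 4, and replicate 4 also had the lowest Tnpo3 level, 253 CPM. With 4 libraries no correlation was computed, and the part of the Tnpo3 level in this pattern was not tested.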

How the data were processed

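Gene counts and splice junction counts of 4 P635L Ctr and 4 P635L Tnpo3 libraries (1 mouse each) were compared. The authors deposited raw counts per gene, made with featureCounts per the file headers. The submitters' processing notes name STAR 2.7.9a, featureCounts 2.0.6, DESeq2 and GRCm39 without their roles. The annotation and the strand setting are not given in the sources used here. The authors' deposited rMATS tables give junction counts per library and event against WT Ctr. The 2 tables were joined by event type, gene and all coordinates, and inclusion levels are the deposited ones, given as a fraction. The order of libraries is not stated there, so libraries are named by listed position.

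Genes were fitted on the 8 libraries alone in R 4.3.3 with edgeR 4.0.16 (TMM factors, filterByExpr, robust quasi-likelihood F test, two-sided), with Benjamini-Hochberg adjustment over the 17930 genes tested. CPM values use TMM factors. The interaction used all 16 libraries. Events with at least 10 junction reads in each library, and at least 10 inclusion and 10 skipping reads in all, were tested by edgeR on inclusion and skipping counts with 1 term per library. The negative binomial dispersion of events was set to 0, a choice made after the planned estimate failed its test on simulated data. Both tests were checked on simulated data, where the share of false calls among events was above the nominal 0.05 and many of the smaller changes in inclusion were missed. Single values were tested by exact permutation of the 70 assignments.

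Members and lists were chosen with earlier results of these data known, and lists are described by counts and medians only. Named genes are Tnpo3, Rbm20, the 10 called genes with the largest rise and the 10 with the largest fall among those without overlap and a mean log2 CPM of 1 or more, up to 4 called and 2 uncalled members per list, and 5 genes in each direction for the interaction. Named events are the largest called event of each listed target and the 10 largest elsewhere. Of the 23, 1 is not reported here. Alternatives were DESeq2 1.42.0, limma 3.58.1, other factors and filters, a replicate block and leaving out each library.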

Additional observations from a re-analysis of the deposited data

Results flagged for a closer look

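Single libraries stood apart from the other 3 of their group in 26 of 310 groups of 4 values examined, by Dixon's criterion at 95%, where chance alone picks out about 5% of groups. Of the 26 values, 11 belong to P635L Tnpo3 replicate 4. In CPM, that library was high for Nppa (4882), Col22a1 (1.88), Paqr6 (2.73), Tnnt3 (6.57), Ipo5 (212), Mmp23 (49.2), Fgf21 (0.271), Hspa1l (5.84) and Hsph1 (42.9), and low for Decr1 (337) and Cox7a1 (827). Each of these 11 values lies on the side of the P635L Ctr libraries. P635L Tnpo3 replicate 3 was high for Lgi1 (5.55 CPM), Lyz1 (9.49 CPM, a close paralog of Lyz2), Gata6 (35.0 CPM) and Myl2 (14727 CPM). Among the controls, replicate 4 was low for Mmel1 (3.27 CPM) and high for Pdgfra (95.2 CPM), replicate 3 was low for Bgn (548 CPM) and Smad6 (12.5 CPM), and replicate 1 was the library with reads of Msln (0.076 CPM, the others at 0).

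Inclusion levels that stood apart were those of Ttn (0.90 at Ctr position 3), Camk2d (0.83 at Ctr position 4), Mlip (0.84 at Ctr position 4), 2310057M21Rik (0.97 at Ctr position 2), Ryr2 (0.10 at Tnpo3 position 4) and the Mhrt intron (0.66 at Tnpo3 position 2). For the first 4 of these the other libraries of the group were at 1.00.

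The effect of the Tnpo3 virus differed between P635L and WT hearts, by the interaction test at an adjusted p under 0.05, in 27 of the 132 named genes. Over all genes tested it did so in 94 of 18662 (0.504%). Up to 5 genes in each direction were named for their called interaction. Most others were named for a call in the same P635L libraries, so the count of 27 is a description. On the log2 scale the effect in P635L minus that in WT was positive for Gm34302 (6.81), Myh7b (6.53), Lgi1 (3.58), ENSMUSG00000120208 (3.57), Rhd (3.31), Hopx (3.01), Scgb1c1 (2.53), Myh7 (2.16), Scn4b (1.77), Kcnv2 (1.72), Myl3 (1.11), Pde1c (1.10) and Etfb (0.83). It was negative for AW551984 (-4.96), Casq1 (-2.10), Crispld1 (-1.85), Fzd2 (-1.79), ENSMUSG00000121059 (-1.72), Grk5 (-1.30), Tgfb2 (-1.28), Mmp2 (-1.27), Lum (-1.26), Cacna1g (-1.19), Tbx20 (-1.17), Enah (-1.03), Pdgfra (-0.91) and Pdlim3 (-0.77).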

How the results depend on the processing

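No named gene or event that was called changed its direction under the alternatives run. List medians were not tested. Over all lists and alternatives, 22 medians moved by at least the pooled SD of the list between libraries and 586 did not. Against 2846 called genes, 3725 were called by DESeq2, 724 with all 16 libraries in the fit, 1171 in the 5 libraries poor in ENSMUSG00000119584 and 452 when a 2-fold change was also required. Leaving out 1 library gave 1809 (without Ctr replicate 4) to 2699 (without Tnpo3 replicate 4) genes, with 1831 without Ctr replicate 2 and 1863 without Tnpo3 replicate 2. Of the listed genes, 88 were called with all 16 libraries and 139 in the 5 poor ones. The Tnpo3 difference was 3.47 in those 5 and no longer called. The interaction count of 94 became 414 by DESeq2, 146 with no filter on low counts, and 52 (without P635L Tnpo3 replicate 3) to 221 (without WT Tnpo3 replicate 4) with 1 library left out. The count of 155 splicing events became 2 with an estimated negative binomial dispersion, 6 by limma, 68 when skipped exons alone were tested, 59 at a minimum difference of 0.2, 388 with no minimum, and 101 (without Tnpo3 position 2) to 157 (without Ctr position 1) with 1 library left out. Of the 23 named events, 2 were called with the estimated dispersion and 4 by limma, and 13 kept the call with each position left out. Of 125 called named genes, 87 kept it with each library left out and 53 under every setting. The cause of these differences was not tested.

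With the replicate number as a block, 2532 genes were called, 2308 of them shared. The numbers did not pair the libraries: the deviations of same-numbered libraries from their group means correlated at -0.05, 0.15, 0.13 and 0.03. The poor-library and share-term fits were chosen after seeing the data, as was the dispersion of 0 for events, used in place of the planned estimate that gives 2 events. Depth also limits the events: those of 2310057M21Rik and Zfp523 had means of 20.5 and 22.2 junction reads per library with the Tnpo3 virus. A minimum of 20 reads in each library left 152 events called.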
